A study of Mus musculus with 6 samples.

Results

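The REV-ERB, ROR and PAR-bZIP genes and their antagonists form the output arm of the circadian clock, and 9 of them were followed here by symbol through all libraries: Nr1d1, Nr1d2, Rora, Dbp, Tef, Hlf, Nfil3, Bhlhe40 and Bhlhe41. All 9 were among the 53735 rows of the table and all 9 passed the filter on low counts. Aortas of Mymsl knockout mice (KO) and of wild-type mice (WT) were compared, with 3 libraries per genotype, and Mymsl is a long noncoding RNA gene. Per the labels' protocols, the aortic media was the source of the smooth muscle cells whose RNA was sequenced. Neither group carried a further allele or treatment in the labels. The sources used here do not give strain, age, sex, the way the knockout was made, the number of mice per library or the time of day at dissection. P-values therefore measure only the spread between these libraries. No row was named Mymsl, so the knockout itself was not checked here.

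The circadian clock is a transcriptional loop found in most mouse cells, vascular smooth muscle included. CLOCK, or its relative NPAS2, pairs with BMAL1 (encoded by Arntl) on E-box elements and switches on Per and Cry genes, whose products block the pair, together with Nr1d1, Nr1d2, Dbp, Tef, Hlf, Bhlhe40 and Bhlhe41. REV-ERB proteins repress, and ROR proteins activate, genes such as Arntl, Npas2, Clock and Nfil3 through a shared element. The PAR-bZIP activators DBP, TEF and HLF compete with the repressor NFIL3 on D-box elements. In mouse tissues Arntl, Npas2 and Nfil3 are known to peak when Dbp is lowest. Through the cycle the peak of Arntl is followed by those of Nr1d1, then Dbp, then the Per genes and finally Cry1.

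The promoters show which of these elements stand next to the genes. RefSeq promoter windows (GRCm38.p6) were found for 8 members, in 9 windows, and the 250 bases before each start were searched on both strands. The E-box CACGTG lay in windows of Tef and Bhlhe41, and of all 32851 promoter windows 6.02% held it. The variant CACGTT, which reads AACGTG on the other strand, lay in that of Nr1d1 (3.85% of all windows). The REV-ERB and ROR element, searched as ANTNGGTCA, lay in that of Nfil3, on the other strand and within its first annotated exon (1.87% of all windows). A longer form with a further A in front, which was searched first, had no match in the members' windows (0.493% of all windows), so the match of Nfil3 depends on the shorter form. The D-box TTANGTAA (2.06% of all windows) had no match in the members' windows, which says only that these letters are not there. Per3 and Ciart, targets outside the 9, are shown because their windows carried several copies, of the D-box and of the E-box respectively. A match describes the letters and does not show binding. The stretches below run 5′ to 3′ on the gene's strand, with the matches in capitals, and none overlaps an annotated exon. They lie at chr15:81811246-81811311 (plus strand, before the downstream start of Tef), chr6:145865559-145865603 (minus, Bhlhe41), chr11:98775378-98775435 (minus, Nr1d1), chr4:151044786-151044900 (minus, Per3) and chr3:95882252-95882374 (minus, Ciart).
Tef: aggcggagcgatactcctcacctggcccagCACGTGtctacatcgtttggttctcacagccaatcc
Bhlhe41: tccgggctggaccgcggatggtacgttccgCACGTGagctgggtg
Nr1d1: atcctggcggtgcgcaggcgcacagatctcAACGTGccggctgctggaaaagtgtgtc
Per3: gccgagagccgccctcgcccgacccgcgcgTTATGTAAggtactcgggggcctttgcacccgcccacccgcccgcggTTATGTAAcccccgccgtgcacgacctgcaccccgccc
Ciart: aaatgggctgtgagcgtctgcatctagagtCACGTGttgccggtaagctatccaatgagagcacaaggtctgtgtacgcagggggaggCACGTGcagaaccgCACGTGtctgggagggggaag

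Libraries held between 20048216 and 25521123 counts, and levels are in CPM, counts divided by library size and scaled by the trimmed mean of M values. Mitochondrially encoded genes took 5.66% to 9.02% of WT counts and 10% to 18.9% of KO counts. With these and the hemoglobin genes left out of the fit, no fold change of a member moved by more than 0.000599 on the log2 scale. That fit still held 14133 rows of 14145 and could not show what the mitochondrial share stands for. The part of that share in the levels of the members was not tested. Smooth muscle markers summed to between 43460 and 57550 CPM, with all 10 tested and none at 0. WT replicate 3 stood apart from the other 5 libraries in the clock genes. It was at least 2-fold lower than each of them in 6 of the 9 members, where 0.636% of the 14145 tested rows met that rule. It was at least 2-fold higher than each in 1 member, Nfil3, against 0.0636% of tested rows. Among rows with a mean of at least 5 CPM these shares were 0.219% and 0.0666%, and the same members were among them. No member met either rule in another library, where the shares of lower rows were 0.113% for WT replicate 1, 0.375% for WT replicate 2, and 0.573%, 0.438% and 0.233% for the KO replicates. Those of higher rows were 0.141% and 0.0707% for the same WT libraries and 0.438%, 0.0141% and 0.742% for KO. Results are therefore given with and without WT replicate 3.

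Dbp, the albumin D-box binding protein that gives the PAR-bZIP group its best-known rhythm, lies on chromosome 7 (45705088 to 45710203, plus strand; GRCm38, GENCODE M21). It measured 282, 335 and 43.6 CPM in the WT replicates, in the order 1, 2 and 3 used throughout, and 452, 535 and 343 CPM in the KO replicates. Every KO library stood above every WT library, but KO replicate 3 and WT replicate 2 were almost level, and WT replicate 3 lay 6.46-fold below the next lowest library. Of all tested rows, 10.5% had every KO library above every WT library, and Dbp was the only member among them.

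Tef, thyrotroph embryonic factor, on chromosome 15 (81802421 to 81826863, plus strand), measured 302, 463 and 120 CPM in the WT replicates and 499, 490 and 438 CPM in the KO replicates. Hlf, hepatic leukemia factor, on chromosome 11 (90336536 to 90390895, minus strand), measured 69, 125 and 19.3 CPM in WT and 112, 131 and 118 CPM in KO. In both genes WT replicate 3 was lowest, WT replicate 1 next, and WT replicate 2 lay inside the KO range. The distance of WT replicate 3 from the next library was 2.51-fold for Tef and 3.58-fold for Hlf.

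Nfil3 (chromosome 13, 52967209 to 52981073, minus strand), the repressor at the same D-boxes, took the opposite course. It measured 5.02, 4.13 and 27.6 CPM in WT and 3.04, 5.06 and 6.06 CPM in KO. WT replicate 3 stood 4.56-fold above the highest of the other libraries, and the other WT libraries lay inside the KO range. The count of Dbp was 1.58 times that of Nfil3 in WT replicate 3 and between 56.1 and 149 times in the other libraries, so this ratio of activator to repressor transcripts differed between libraries by more than either gene alone. This ratio of counts within a library needs no scaling between libraries, although each gene's length enters its absolute size.

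**Figure D1:**
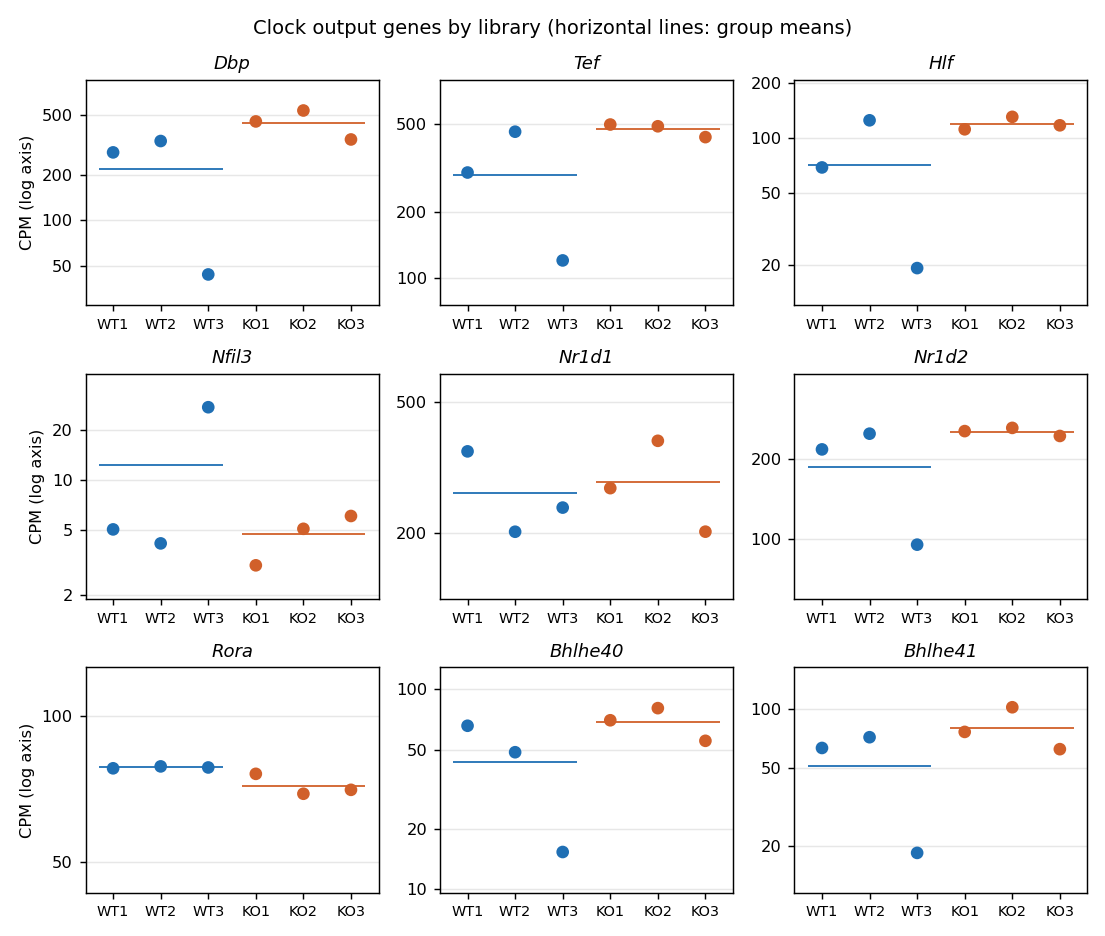
Level in CPM (log axis) of each of the 9 clock output genes in WT (blue) and KO (orange) libraries, each point 1 library and each horizontal line the mean of 3 libraries. WT replicate 3 is the lowest point for Dbp, Tef, Hlf, Nr1d2, Bhlhe40 and Bhlhe41 and the highest for Nfil3, while Rora lies between 69.1 and 78.7 CPM throughout.

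The REV-ERB genes did not share one pattern. Nr1d2, which encodes REV-ERB beta (chromosome 14, 18204054 to 18239127, minus strand), measured 218, 249 and 95.5 CPM in WT and 255, 262 and 245 CPM in KO. Its KO libraries were close together, with a highest-to-lowest ratio of 1.07, and WT replicate 3 was 2.28-fold below the nearest other library. Nr1d1, which encodes REV-ERB alpha (chromosome 11, 98767932 to 98775333, minus strand), measured 354, 202 and 239 CPM in WT and 274, 381 and 202 CPM in KO. Here WT replicate 3 lay within the range of the other libraries, and WT replicate 1 and KO replicate 2 were the high ones. Nr1d1 counts were 2.5 times those of Nr1d2 in WT replicate 3 and 0.81 times in WT replicate 2.

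Of the members, 6 share exonic sequence with an annotated gene on the opposite strand, and the sources used here do not say whether the counting used strand. Thra, the thyroid hormone receptor alpha gene, overlaps 263 bases of Nr1d1 exons (8.55% of them) and measured 256, 200 and 380 CPM in WT and 167, 227 and 187 CPM in KO. Sphk2, a sphingosine kinase gene, overlaps 539 bases of Dbp exons (18%) and measured 22.8, 25.3 and 39.1 CPM in WT and 18.8, 16.9 and 23.9 CPM in KO. Both neighbours were highest in WT replicate 3, where Dbp was lowest and Nr1d1 intermediate. The longest overlap relative to its gene was in Bhlhe41, where Gm43909 covers 1280 bases of exons (19%). Tef (Gm17597), Bhlhe40 (0610040F04Rik) and Rora (Gm15511) share 2.45%, 2.51% and 0.627% of their exons, and the levels of these 4 partners were not analysed here. The part of shared or discarded reads was not tested, and the levels of all 6 members carry this uncertainty.

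Rora, which encodes an activator at the REV-ERB element, spans 68653786 to 69388246 of chromosome 9 on the plus strand. It measured 78, 78.7 and 78.3 CPM in WT and 76, 69.1 and 70.4 CPM in KO. The WT libraries lay close together, WT replicate 3 included, and 0.403% of tested rows had a smaller SD of log2 CPM in WT than Rora. All KO libraries lay below all WT libraries, as in 11.3% of tested rows, by a small margin. Rorb, which encodes another ROR protein, had no counts, which allows up to 3 counts per library. The ratio of Nr1d2 to Rora counts, repressor to activator, was 1.22 in WT replicate 3 and between 2.79 and 3.79 elsewhere.

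Bhlhe40 and Bhlhe41 encode DEC1 and DEC2, repressors that compete for E-boxes, and both lie on chromosome 6 (108660629 to 108666925, plus strand, and 145858243 to 145865558, minus strand). Bhlhe40 measured 65.8, 48.5 and 15.4 CPM in WT and 70, 80.5 and 55.3 CPM in KO. Bhlhe41 measured 63.2, 71.8 and 18.4 CPM in WT and 76.4, 102 and 62.3 CPM in KO. WT replicate 3 was 3.16-fold and 3.39-fold below the nearest other library, and of the remaining WT values only that of Bhlhe40 in WT replicate 2 lay outside the KO range, below it. KO replicate 2 was the highest library for both, as it was for Dbp, Hlf, Nr1d1 and Nr1d2.

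Per kilobase of annotated exon, which allows genes to be compared, Dbp was the highest member in KO at 148 ± 32 CPM per kb (SD, n = 3), followed by Nr1d1 (92.8 ± 29.3), Tef (60.5 ± 4.25), Nr1d2 (46.9 ± 1.65), Hlf (18 ± 1.47), Bhlhe40 (14.6 ± 2.7), Bhlhe41 (12 ± 3), Rora (5.5 ± 0.278) and Nfil3 (2.33 ± 0.758). Neighbours whose ranges of 1 SD around the mean overlapped were Dbp and Nr1d1, Nr1d1 and Tef, Hlf and Bhlhe40, and Bhlhe40 and Bhlhe41. In WT both ends of the order turned, with Nr1d1 (86.1 ± 25.8 CPM per kb) above Dbp (73.6 ± 51.9) and Nfil3 (6.05 ± 6.57) above Rora (5.99 ± 0.0272; SD, n = 3), although the ranges of 1 SD around the mean overlapped in both pairs. Rora has many isoforms, and the summed exon length of 13.071 kb makes its level per kilobase low.

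The spread of the members over the 6 libraries was wide next to that of other genes. The highest library exceeded the lowest 12.3-fold for Dbp, 9.08-fold for Nfil3, 6.79-fold for Hlf, 5.56-fold for Bhlhe41, 5.24-fold for Bhlhe40, 4.16-fold for Tef, 2.75-fold for Nr1d2, 1.89-fold for Nr1d1 and 1.14-fold for Rora, against a median of 1.34-fold over tested rows. The ratio for Dbp was larger than in 99.4% of tested rows, and that for Rora larger than in 10.1%. For 7 members the SD of log2 CPM was larger in WT, as for Tef with 1 in WT and 0.1 in KO and Hlf with 1.38 and 0.12, where the median tested row had 0.12 and 0.13. Nr1d1 (0.42 in WT and 0.46 in KO) and Rora (0.0065 and 0.072) had the larger SD in KO. The KO libraries also differed among themselves, and the KO SD was larger than in 90.1% of tested rows for Nfil3, 88% for Nr1d1, 82.6% for Bhlhe41 and 80% for Dbp.

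The core loop showed the same libraries apart. Arntl, the BMAL1 gene, had 86, 17 and 813 counts in the WT replicates (3.57, 0.675 and 33.7 CPM) and 11, 11 and 10 counts in the KO replicates (0.567, 0.526 and 0.433 CPM). The exact 95% Poisson interval was 758 to 871 counts for WT replicate 3, 68.8 to 106 for WT replicate 1, 9.9 to 27.2 for WT replicate 2 and 4.8 to 18.4 for KO replicate 3, which covers counting error only. At these depths WT replicate 2 could not be told apart from the KO libraries in Arntl, whereas WT replicates 1 and 3 could. Npas2 measured 11.8, 4.09 and 51.6 CPM in WT and 3.82, 6.02 and 5.19 CPM in KO, and Clock 92.8, 62.2 and 157 CPM in WT and 57, 55.4 and 57.7 CPM in KO. These 3 activator genes were highest in WT replicate 3 and next highest in WT replicate 1.

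The repressor genes of the loop went the other way. Per2 measured 94, 210 and 36.4 CPM in WT and 202, 166 and 215 CPM in KO, Per3 67.7, 147 and 15.7 CPM in WT and 153, 146 and 138 CPM in KO, and Per1 67.7, 139 and 26.3 CPM in WT and 125, 107 and 111 CPM in KO. Ciart, a further repressor of the loop whose promoter with 3 E-boxes is printed above, measured 12.5, 32.3 and 0.828 CPM in WT and 42.6, 46.2 and 22.5 CPM in KO, a 55.8-fold range. Cry1 measured 5.89, 22.8 and 4.39 CPM in WT and 14.5, 11.4 and 23.1 CPM in KO. Cry2 lay between 57.8 and 79.1 CPM.

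WT replicate 1 took a place between WT replicate 3 and the rest. The order WT replicate 3, then WT replicate 1, then all 4 other libraries held in ascending direction for 4 of 9 members (Nr1d2, Dbp, Tef and Hlf), against 8.31% of tested rows, and for 5 of 15 tested core clock genes. In descending direction it held for none of the members and for 3 core clock genes, Arntl, Clock and Npas2, against 6.82% of tested rows. Nr1d1, Nfil3, Bhlhe40 and Bhlhe41 of WT replicate 1 lay inside the range of those 4 libraries.

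**Figure D2:**
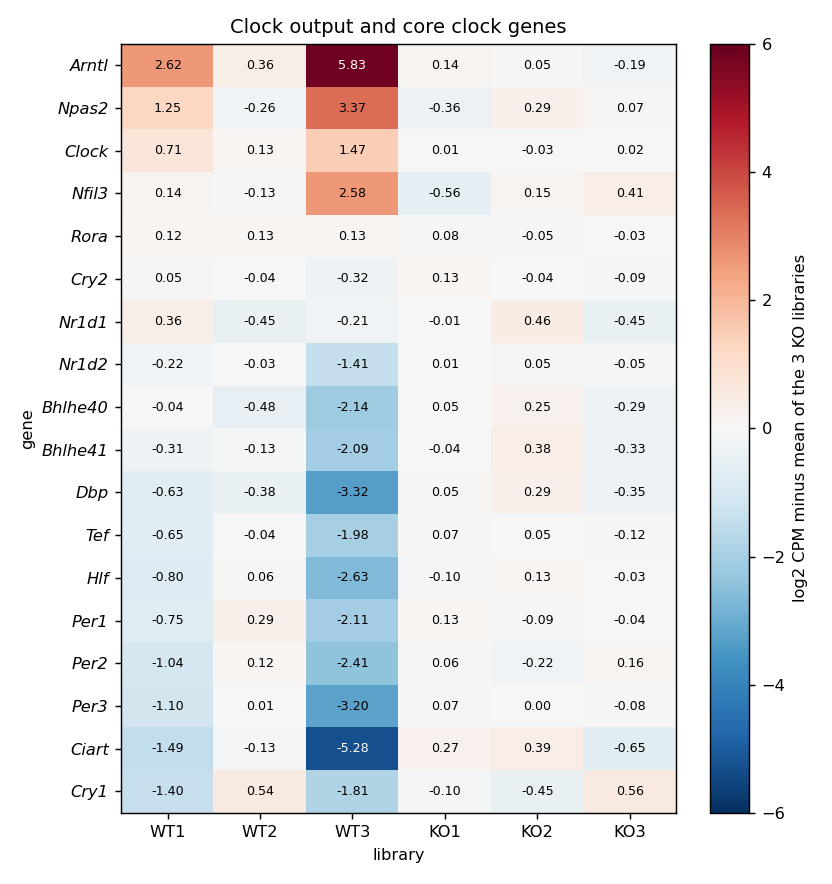
Difference of log2 CPM from the mean of the 3 KO libraries, for the 9 clock output genes and 9 core clock genes (rows) in each library (columns), with red for higher and blue for lower. WT replicate 3 runs from 5.83 for Arntl to −5.28 for Ciart, WT replicate 1 has differences smaller in size except for Nr1d1 (0.36 against −0.21) and mostly of the same sign, and WT replicate 2 lies between −0.48 and 0.54.

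Genes known to peak one after another were also compared within single libraries, as ratios of counts. Nr1d1, the earlier gene, exceeded Per2 6.57-fold in WT replicate 3 and 3.77-fold in WT replicate 1, then 2.29-fold in KO replicate 2 and 1.36-fold in KO replicate 1. In WT replicate 2 and KO replicate 3 the ratio was 0.96 and 0.938. The ratio of Nr1d1 to Cry1, the latest gene, was 54.4 and 60.1 in WT replicates 3 and 1, 33.4 in KO replicate 2, 18.8 in KO replicate 1, and 8.84 and 8.76 in WT replicate 2 and KO replicate 3. Both ratios share Nr1d1, which was itself lowest in WT replicate 2 and KO replicate 3, so their orders are not independent. The ratio of Dbp to Per2, another pair of an earlier and a later gene, gave a different order, with 3.22 in KO replicate 2, 3 in WT replicate 1, 2.24 in KO replicate 1, 1.59 in both KO replicate 3 and WT replicate 2, and 1.2 in WT replicate 3. WT replicate 3 was thus first in the Nr1d1 to Per2 ratio and last in the Dbp to Per2 ratio. Such orders were read from the data and not tested. The labels give no time of dissection to set beside them.

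Between Dbp and Arntl, which peak at opposite times, the log2 ratio of counts was 6.3, 8.96 and 0.37 in the WT replicates and 9.64, 9.99 and 9.63 in the KO replicates. The KO mean was 9.75 ± 0.2 and the WT mean 5.21 ± 4.39 (SD, n = 3 each), a difference of 4.54. All KO libraries stood above all WT libraries, and the exact two-sided permutation p was 0.1, the smallest that 3 against 3 libraries allow. Without WT replicate 3 the difference was 2.13, and with WT replicate 2 as its only WT library it would rest on the gap between 8.96 and 9.63, with 10 to 17 Arntl counts behind each value.

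**Figure D3:**
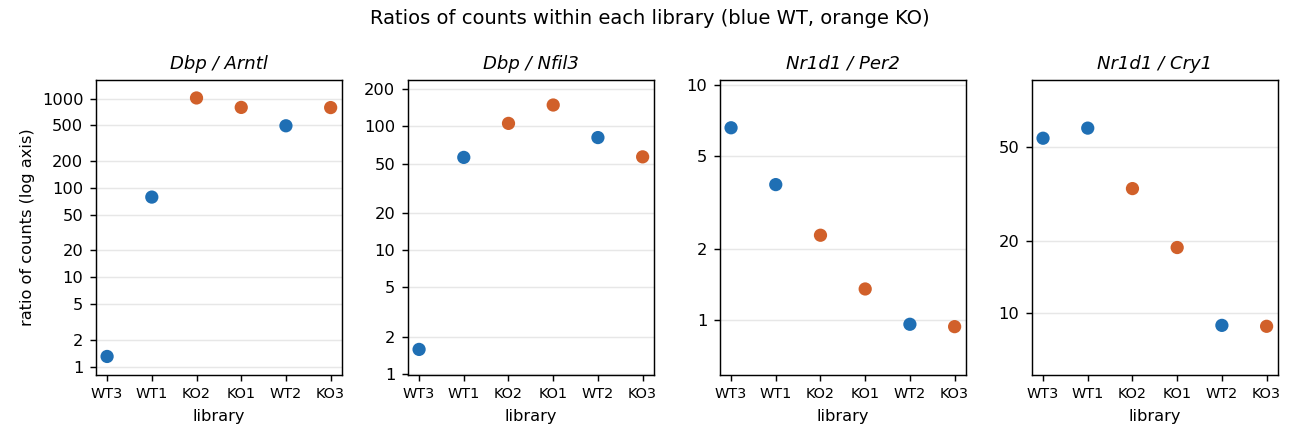
Ratio of counts of named gene pairs in each library (log axis), WT in blue and KO in orange, with libraries in descending order of the Nr1d1 to Per2 ratio in all panels. WT replicate 3 has the lowest ratio of Dbp to Arntl and to Nfil3, and WT replicate 2 and KO replicate 3 lie beside each other at 0.96 and 0.938 for Nr1d1 to Per2.

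Against this background the genotypes were compared. None of the 9 members passed in edgeR's quasi-likelihood test with Benjamini-Hochberg adjustment over 14145 rows, where 0.00707% of rows passed, and none passed in DESeq2 (2.35% of the rows it adjusted; it gave no adjusted p to Nfil3) or limma-voom. At an unadjusted p under 0.05 there were 0 members in edgeR, DESeq2 and limma-voom, against 14.6%, 7.29% and 14.2% of the rows given a p-value. These were 14145 rows in edgeR and limma-voom and 24841 in DESeq2, where rows of low counts were kept, so the shares are over unlike sets. Of the members, 7 had log2 fold changes above 0 and 2 below, with a median of 0.65 against 0.01 over all tested rows. Without WT replicate 3 the median was 0.25.

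For Dbp the log2 fold change of KO over WT was 1.01 ± 0.61 (SE; edgeR adjusted p = 0.452), from means of 220 ± 155 CPM in WT and 443 ± 95.9 in KO (SD, n = 3 each). Without WT replicate 3 it was 0.53 ± 0.19 (adjusted p = 0.575, unadjusted p = 0.0278 in edgeR, the only member under 0.05 in that fit against 8.47% of rows). WT replicate 3 was singled out by the values of these genes and was the farthest library of Dbp, so leaving it out had to narrow the spread. The p-value of that fit is therefore no independent test. With WT replicates 1 and 3 both left out the log2 fold change of Dbp was 0.41 ± 0.25. Tef had 0.69 ± 0.40 over all libraries, 0.32 ± 0.18 without WT replicate 3 and 0.04 ± 0.13 without both, and Hlf had 0.75 ± 0.53, 0.31 ± 0.23 and −0.06 ± 0.12. WT replicates 1 and 3 were the lowest libraries of Dbp, Tef and Hlf, so leaving them out had to lower these values and is no test of them. Leaving out WT replicate 2, the highest WT library of these genes, raised the values to 1.45 ± 0.68 for Dbp, 1.17 ± 0.35 for Tef and 1.44 ± 0.46 for Hlf. No member passed in that fit either, where 0.00695% of rows did, and unadjusted p-values under 0.05 came for Tef, Hlf and Nfil3 and for 9 of 15 core clock genes, against 14.8% of rows in edgeR. WT replicate 2 lay inside the KO range for Tef, Hlf, Per2 and Per3, so leaving it out had to widen their differences. The p-values of that fit are therefore no independent test of the clock genes. In the fit without WT replicates 1 and 3 WT was a single library, whose spread was assumed to be that of KO.

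Nfil3 had −1.37 ± 0.72 over all libraries (edgeR adjusted p = 0.401) and 0.05 ± 0.30 without WT replicate 3, so its direction depended on that library. Nr1d1 had 0.11 ± 0.27 (adjusted p = 0.869), and Nr1d2 had 0.44 ± 0.30, or 0.13 ± 0.08 without WT replicate 3. Bhlhe40 had 0.67 ± 0.44 and 0.27 ± 0.19, and Bhlhe41 0.65 ± 0.44 and 0.25 ± 0.20, in the same pair of fits. Rora, the member of smallest SE, had −0.13 ± 0.057 (adjusted p = 0.359) and −0.12 ± 0.068. No member passed in either fit, and 0.00693% of rows passed without WT replicate 3. With WT replicates 1 and 3 both left out, 0% of rows passed and 4.72% had an unadjusted p under 0.05 in edgeR, none of them members.

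**Figure D4:**
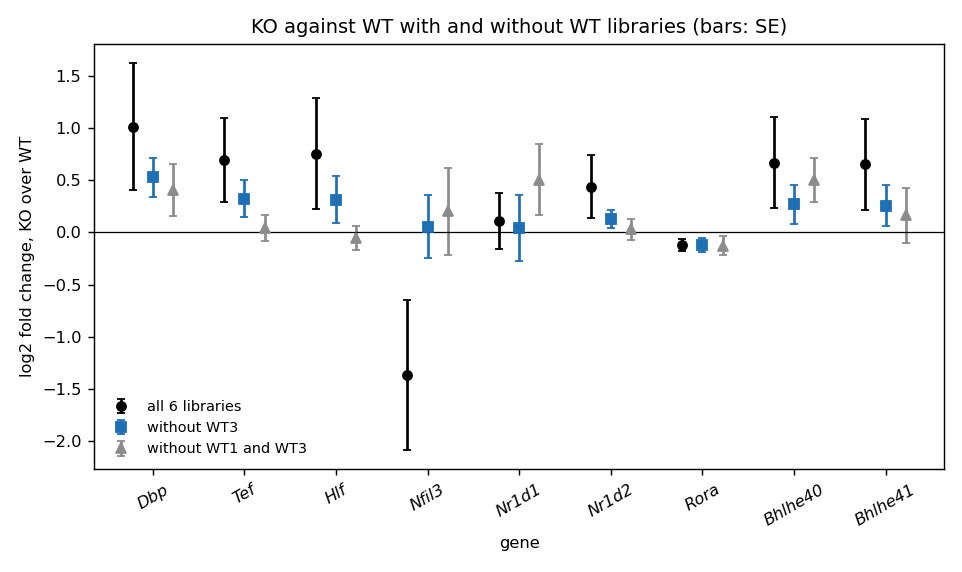
Log2 fold change of KO over WT with its SE from edgeR for each of the 9 clock output genes, over all 6 libraries (black), without WT replicate 3 (blue) and without WT replicates 1 and 3 (grey). Nfil3 goes from −1.37 to 0.05 when WT replicate 3 is left out, and Tef and Hlf go to 0.04 and −0.06 when both are.

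In the core clock list 15 of 16 genes were tested and none passed in edgeR, with 9 above 0, 6 below and a median of 0.11. Unadjusted p-values under 0.05, reached by 14.6% of all rows, came for Arntl (−4.63 ± 1.40, adjusted p = 0.277), Clock (−0.88 ± 0.29, adjusted p = 0.279) and Npas2 (−2.16 ± 0.82, adjusted p = 0.305). In DESeq2, where 7.29% of its 24841 rows were under 0.05, unadjusted p was 0.00064 for Arntl, 0.0241 for Clock and 0.0237 for Npas2. The DESeq2 adjusted p was 0.223 for Clock and 0.222 for Npas2, and Arntl was given none. In limma-voom, where 14.2% of rows were under 0.05, Clock stayed under it (−0.77 ± 0.29) and Arntl (−3.02 ± 2.18) and Npas2 (−1.43 ± 1.09) did not. Every KO library lay below every WT library for Arntl and Clock, as in 11.3% of tested rows. Without WT replicate 3 the values were −2.05 ± 0.69 for Arntl and −0.45 ± 0.16 for Clock, both still under an unadjusted 0.05 in edgeR as were 8.47% of rows, and −0.66 ± 0.44 for Npas2. WT replicate 3 was singled out by clock genes and was the highest library of all 3, so the p-values without it are no independent test. With WT replicates 1 and 3 both left out the values of Arntl, Clock and Npas2 were −0.41 ± 0.57, −0.13 ± 0.08 and 0.30 ± 0.32 (edgeR adjusted p = 0.905, 0.841 and 0.881). Among 18 tested genes with rhythms in many tissues, 13 were above 0, none passed, and WT replicate 3 lay outside the range of the other libraries in 13, as it did in 7 of 9 members, 11 of 15 core clock genes and 41.5% of tested rows. Tspan4, a tetraspanin, measured 77.6, 121 and 40.7 CPM in WT and 118, 113 and 141 CPM in KO (0.64 ± 0.33), and Cys1 measured 47.3, 92.8 and 31.9 CPM in WT and 85.7, 89.4 and 113 CPM in KO (0.75 ± 0.34). Ypel2 ran opposite, with 36.6, 39.3 and 72.5 CPM in WT and 31.1, 34.3 and 32.4 CPM in KO (−0.60 ± 0.24).

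Some members also respond to signals other than the clock, and lists for those were set beside them. Glucocorticoid-induced genes (14 tested, 7 above 0 and 7 below, median 0.002) had none that passed, and WT replicate 3 lay outside the other libraries in 5. Tsc22d3, induced by glucocorticoids and itself rhythmic, measured 25.6, 52.3 and 14.2 CPM in WT and 49.5, 31.8 and 56.4 CPM in KO. Immediate early genes, which with Nfil3 and Bhlhe40 react to acute stimuli, had 17 of 24 above 0 (median 0.09, none passed) and were outside in WT replicate 3 in 6. Hypoxia targets, the class to which Bhlhe40 also belongs, had 10 of 17 above 0 (median 0.03, none passed), with Adm at 0.35 ± 0.14.

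Markers of other cell types summed to less than those of smooth muscle, and 3 lists had their lowest library in WT replicate 3. The 10 fat markers, all tested and none at 0, summed to 314, 214 and 156 CPM in the WT replicates and 190 to 330 CPM in KO. The 10 endothelial markers, all tested and none at 0, summed to 382 to 511 CPM in WT, lowest in WT replicate 3, and 433 to 751 CPM in KO. The skeletal muscle markers, 5 of 10 tested and none at 0 in all libraries, summed to 10.5, 14.1 and 8.61 CPM in WT and 9.39 to 13.1 CPM in KO. In bulk RNA, fewer cells of a type and less RNA per cell cannot be told apart. The part of these cells in the levels of the 9 genes was not tested. Macrophage markers (53.4 to 88.7 CPM in WT, 48.6 to 126 in KO), fibroblast markers (1380 to 2069 and 1268 to 2496), heart muscle markers (78.6 to 112 and 89.5 to 161), Schwann cell markers (453 to 513 and 427 to 497) and erythroid markers (20.5 to 153 and 25.8 to 35.9) did not have their lowest library in WT replicate 3. The erythroid sum was 153, 20.5 and 76.4 CPM in the WT replicates. It was thus highest in WT replicate 1 and next in WT replicate 3, while WT replicate 2 lay below every KO library. Pmp2 of the Schwann cell list was at 0 throughout, and no lymphocyte marker passed the filter. Several lists leaned to one side between the genotypes, although none of their genes passed in edgeR. The median over all tested rows was 0.01. Log2 fold changes of KO over WT were above 0 for 6 of 7 heart muscle markers (median 0.82), 8 of 10 endothelial (0.37), 10 of 10 macrophage (0.29), 8 of 10 fat (0.23), 8 of 10 fibroblast (0.12) and 5 of 9 Schwann cell markers (0.29). They were below 0 for 9 of 10 smooth muscle markers (median −0.14), 5 of 5 erythroid (−1.47) and 3 of 5 skeletal muscle markers (−0.115). KO replicate 2 had the lowest macrophage and fibroblast sums of all libraries (48.6 and 1268 CPM) and the highest smooth muscle sum (57550 CPM). Its endothelial and fat sums, 433 and 190 CPM, lay inside the WT ranges. In KO replicates 1 and 3 the macrophage and fibroblast sums lay above every WT library. Of the heart muscle markers, 3 of 7 had an unadjusted p under 0.05 in edgeR, against 14.6% of all rows. So had 2 of 5 erythroid, 2 of 10 smooth muscle, 2 of 10 endothelial and 1 of 9 Schwann cell markers. None of the skeletal muscle, macrophage, fat or fibroblast markers had. The sum of the whole heart muscle list was 161 CPM in KO replicate 1. In KO replicates 2 and 3 it was 106 and 89.5 CPM, inside the WT range of 78.6 to 112 CPM. The part of these differences between lists and libraries in the fold changes of the 9 genes was not tested.

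By likeness of log2 CPM over the 6 libraries, among 9898 other protein-coding genes with a mean of at least 5 CPM, Dbp was most like Vps26a (Pearson r = 0.995), Bhlhe41 (0.991), Nr1d2 (0.99) and Ciart (0.989), and most opposite to Zfp518b (−0.998), Camsap1 (−0.991), Zfp74 (−0.989) and Nipbl (−0.983). This is a description over 6 points of which WT replicate 3 is the most distant. Without it the values for Bhlhe41, Nr1d2 and Ciart were 0.898, 0.865 and 0.894, below that of Vps26a (0.928) and, in size, that of Zfp518b (−0.986). The size of the difference sets them apart from the others: Vps26a ranged only from 57.9 to 80.5 CPM. Nfil3 was most like Unkl (0.993), Zfp319, Ints3 and Polr3b and most opposite to Vamp8 (−0.988), Tmem243, Stn1 and Mrpl18. Nr1d1, with its separate pattern, was most like St3gal3 (0.975), Zfp949, Hspbp1 and Emc3 and most opposite to Zfp664 (−0.993), Tmco4, Ino80b and Zfp451, none of them a gene of the clock lists.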

How the data were processed

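The authors deposited raw read counts per gene, 1 column per library. The submitters' processing notes name GRCm38, featureCounts (Subread 1.6.1), STAR 2.6.0c and Trimmomatic 0.36. The annotation release, the strand setting and the treatment of multi-mapping reads were not given in the sources used here. Columns were matched to libraries by the name in the labels. The 9 members and all gene lists were chosen with earlier results of these data known.

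Counts were tested with edgeR 4.0.16 in R 4.3.3 (quasi-likelihood, genotype as the only term, TMM, filterByExpr), two-sided, adjusted by Benjamini-Hochberg over 14145 rows with a threshold of 0.05, and checked first on simulated data. Fold changes are KO over WT, with SE from the F statistic. Alternatives were DESeq2 1.42.0, its size factors, limma-voom (limma 3.58.1), other filters, no mitochondrial and hemoglobin genes, a replicate block and leaving out libraries. Coordinates and exon lengths come from GENCODE M21. The named genes were all 9 members, 9 core clock genes, genes that overlap a member, up to 3 genes of smallest p per list, and the 4 genes most and least like Dbp, Nr1d1 and Nfil3.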

Additional observations from a re-analysis of the deposited data

How the results depend on the processing

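No member and no core clock gene passed in any fit that was run. Rows called over the whole table numbered 1 in the fit with all libraries, 199 in DESeq2 (60 higher, 139 lower, over 8467 rows), 9 with no filter, 0 with the replicate block, 0 with WT replicates 1 and 3 both left out (chosen after seeing the data), and 0 to 3 over single left-out libraries, with 0 without WT replicate 1 and 3 without KO replicate 2. The cause was not tested. Over single left-out libraries the log2 fold change of Nr1d1 ran from −0.16 (without KO replicate 2; −0.05 without WT replicate 2) to 0.374, that of Nfil3 from −1.78 to 0.0522 (without WT replicate 3), and that of Cry2 from −0.0011 (without WT replicate 3) to 0.176. With WT replicates 1 and 3 both left out, direction turned for Hlf (−0.0575), Nfil3 (0.199), Npas2 (0.296), Per1 (−0.284), Per2 (−0.11), Per3 (−0.00955) and Cry1 (−0.476). Unadjusted p-values under 0.05 came for Dbp, Nfil3 and Tef with no filter (10.3% of all rows; 3 of 15 core clock genes), for Bhlhe40, Bhlhe41, Dbp and Tef with the replicate block (14.1%; 4 of 15), and for 0 to 3 members when a single library was left out (8.47% to 16.1%; 2 to 9 of 15). The WT libraries differed in these same genes, so the fits without WT replicate 2 or 3 are no independent tests of them. The members' median over single left-out libraries ran from 0.255 without WT replicate 3 to 0.758 without WT replicate 2, and Per2 reached 1.58 in the latter. The median was 0.844 in limma-voom, 0.818 with the replicate block and 0.164 with WT replicates 1 and 3 both left out. The KO minus WT difference of the log2 ratio of Dbp to Arntl ran from 2.13 to 6.41 over left-out libraries. It was 4.54 with the replicate block (exact sign-flip p = 0.25, the smallest that 3 pairs allow). The difference was 2.91 with Npas2 for Arntl and 3.2 with Nr1d1 for Dbp (exact permutation p = 0.2 and 0.1). Same-numbered libraries deviated together by correlations of 0.107, 0.134 and −0.056, and KO replicate 3 correlated best with WT replicate 1 (0.179), so the numbers were not taken to pair them. With 10 to 17 Arntl counts in 4 libraries, differences in Arntl among them were not detectable at this depth.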

Other observations

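Other rows followed the same library. Among 10513 tested rows with a mean of at least 5 CPM, 23 were at least 2-fold lower in WT replicate 3 than in each other library, 6 of them members and 4 core clock genes, and 7 were at least 2-fold higher, including Nfil3, Arntl and Npas2. The genes named here were chosen after their values were seen. Wee1, a kinase that holds back entry into mitosis, measured 21.9, 54.7 and 7.54 CPM in WT and 34.5, 32.9 and 38.5 CPM in KO. Tcap, titin-cap, measured 295, 292 and 101 CPM in WT and 334, 491 and 253 CPM in KO. Coq10b, of coenzyme Q function, measured 75.7, 92.4 and 37.1 CPM in WT and 95.8, 100.4 and 95.3 CPM in KO. The lower rows also held genes outside the clock lists such as Cidec, a fat marker, and the mitochondrially encoded mt-Nd6. Cidec measured 14.6, 7.31 and 3.06 CPM in WT and 10.6, 8.22 and 14 CPM in KO. For mt-Nd6 the values were 43.5, 42.1 and 9.48 CPM in WT and 33.2, 23.5 and 41.7 CPM in KO. The mitochondrial carrier gene Slc25a34 ran opposite, with 35.8, 12 and 83.6 CPM in WT and 7.38, 12.3 and 10.7 CPM in KO, and so did Leo1, of the PAF complex, with 6.23, 2.78 and 16.1 CPM in WT and 4.33, 4.06 and 4.07 CPM in KO. For Slc25a34 and Leo1, WT replicate 1 was again next to WT replicate 3.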
